A study of Mus musculus with 14 samples.

Results

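Liver sinusoidal endothelial cells (LSECs) carry a set of C-type lectin receptors, and the RNA of 8 of these receptor genes was followed after a single injection of carbon tetrachloride (CCl4): Clec4g, Cd209b, Clec14a, Cd93, Clec1b, Clec1a, Clec2d and Clec9a. They were chosen by name from the 54524 genes of the count table, and all 8 passed the filter on low counts, as did 26626 genes in all. The cells came from male Balb/c mice aged 10 to 12 weeks per the sample labels. Healthy LSECs were from 4 mice that received no treatment, so no group received the mineral oil alone, and the other groups were mice given CCl4 in mineral oil intraperitoneally at 0.5 µL per gram of body weight and used 1 day (2 mice), 3 days (4 mice) or 7 days (4 mice) later. LSECs were sorted as CD32-positive, F4/80-negative, UV-negative cells that excluded propidium iodide, and the study's methods add a gate against CD45. RNA was extracted without culture. Day 1 has fewer mice because samples of that day failed the RNA quality requirement, so each value at day 1 rests on 2 animals.

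C-type lectins share a fold that, in many members, binds sugars in a calcium-dependent way, while other members have turned to protein ligands. LSECs line the liver sinusoids and clear glycoproteins, lipoproteins, immune complexes and virus particles from portal blood, and their lectins take part in this clearance and in contacts with passing leukocytes and platelets. CCl4 is converted by cytochrome P450 enzymes to a radical that kills hepatocytes around the central veins, after which the liver repairs itself within days.

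The 8 genes encode receptors of different kinds. Clec4g (LSECtin) and Cd209b (SIGN-R1, a mouse relative of DC-SIGN) are glycan receptors. Clec1b (CLEC-2) is the podoplanin receptor of platelets and signals through a hemITAM motif to the kinase Syk, and Clec1a (CLEC-1) is a related receptor of endothelial and myeloid cells. Clec2d (Clr-b) is the ligand of an inhibitory receptor of natural killer cells, and Clec9a (DNGR-1) is the receptor with which dendritic cells recognize actin filaments of dead cells. Clec14a and Cd93 belong with thrombomodulin (Thbd) and endosialin (Cd248) to the group XIV lectins, large transmembrane proteins of endothelial and perivascular cells.

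In GRCm38, with GENCODE vM21 gene models, 6 of the 8 genes lay near another of them. Clec4g (ENSMUSG00000074491, chr8:3707064-3720651) and Cd209b (ENSMUSG00000065987, chr8:3917655-3926844) were on the minus strand with 197003 bases between them. On chromosome 6, Clec2d (ENSMUSG00000030157) ran from 129180615 to 129186534, Clec1b (ENSMUSG00000030159) from 129397297 to 129409335, Clec9a (ENSMUSG00000046080) from 129408862 to 129424763, and Clec1a (ENSMUSG00000033082) from 129424772 to 129452000. Clec14a (ENSMUSG00000045930, chr12:58264720-58269290) and Cd93 (ENSMUSG00000027435, chr2:148436640-148443563) stood apart from the other members, and 28451 bases separated Cd93 from Thbd. Overlaps limit 3 of the counts, since the use of strand in counting is not given in the sources used here. Clec1b and Clec9a shared 474 bases on the same strand, 184 of them exonic in both, and Clec4g shared 146 exonic bases with the antisense gene Gm16553.

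Promoters of 6 of the 8 genes were matched in RefSeq (GRCm38.p6). The 250 bases before the start site are shown for Clec4g, Cd209b and Clec1b. Clec4g and Cd209b, both on chromosome 8, had lower RNA per library in every injured mouse than in any healthy mouse. By the test described below, Cd209b was called lower at day 3 and day 7, and Clec4g at no day. Clec1b was called higher at day 1, near the threshold. Capitals mark, on either strand, the 4 words AGATAA and also AGATAG, with TGATAA and also TGATAG, that GATA factors read, and AGGAAG as well as CGGAAG, read by ETS factors. The Clec4g bases are chr8:3720652-3720901 (minus strand), those of Cd209b chr8:3926842-3927091 (minus strand) and those of Clec1b chr6:129397047-129397296 (plus strand).
Clec4g: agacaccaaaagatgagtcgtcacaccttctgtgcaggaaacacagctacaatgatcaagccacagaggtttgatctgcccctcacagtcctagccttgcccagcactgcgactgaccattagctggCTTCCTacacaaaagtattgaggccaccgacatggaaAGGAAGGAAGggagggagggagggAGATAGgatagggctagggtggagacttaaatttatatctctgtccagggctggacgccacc
Cd209b: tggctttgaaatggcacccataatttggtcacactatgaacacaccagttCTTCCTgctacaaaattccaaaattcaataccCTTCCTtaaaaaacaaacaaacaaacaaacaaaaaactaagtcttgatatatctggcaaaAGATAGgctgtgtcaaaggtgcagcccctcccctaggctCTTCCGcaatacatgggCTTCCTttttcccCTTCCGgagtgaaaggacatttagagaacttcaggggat
Clec1b: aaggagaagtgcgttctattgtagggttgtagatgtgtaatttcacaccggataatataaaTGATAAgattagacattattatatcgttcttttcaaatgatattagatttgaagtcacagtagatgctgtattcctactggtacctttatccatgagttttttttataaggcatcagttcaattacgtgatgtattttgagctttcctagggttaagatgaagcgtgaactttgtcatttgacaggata

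The Clec4g promoter held 1 GATA word, 62 bases before the start site, and 3 ETS words, of which 2 overlap each other. The Cd209b promoter held 1 GATA word at 108 bases and 5 ETS words between 39 and 200 bases before the start. Clec1b had a GATA word at 189 bases and no ETS word, and neither kind was found in these windows of Clec14a, Clec2d and Clec9a. None of the 6 windows held the AP-1 words TGACTCA or TGAGTCA. No promoter was matched for Cd93 and Clec1a, so none of these searches covers them. Of 32851 promoter windows of the same length, 26.5% held a GATA word, 39.2% an ETS word and 4.46% an AP-1 word, so the words themselves are common. A match to such a short word does not show that a factor binds there.

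The deposited values were read counts, 46401496 to 103912264 per library. They are given below as CPM, counts divided by the TMM-scaled library size,, where 3 counts, the level below which a gene was treated as not detected, correspond to 0.0299 to 0.0661 CPM. The least abundant member still had 250 reads in its lowest library. Differences are log2 fold changes with their standard error (SE), and a gene was called when the Benjamini-Hochberg adjusted p of edgeR's quasi-likelihood test over all 26626 genes was under 0.05. All 10 LSEC markers (Stab1, Stab2, Lyve1, Fcgr2b, Oit3, Gpr182, Dnase1l3, F8, Kdr and Flt4) were detected in every library. Their summed level was 14371 to 17590 CPM in healthy LSECs and 11062.5 to 12648 CPM at day 1. It was 8350 to 14382 CPM at day 3 and 9426 to 12778 CPM at day 7. Against healthy LSECs, 1 of the 10 was called higher and 3 lower at day 1 and again at day 3, and 0 at day 7. Their median log2 fold change was -0.77, -0.64 and -0.50 at the 3 days. The mean of Lyve1 rose from 387 CPM in healthy LSECs to 3209 CPM at day 1. The summed level of 9 pan-endothelial genes was 4970 to 5780 CPM in healthy LSECs, 4858 to 5822 CPM at day 1, 2899 to 4598 CPM at day 3 and 2691 to 3784 CPM at day 7. Marker genes of leukocytes, hepatocytes and stellate cells were also present and are given below beside the results they touch. In bulk RNA of this kind, fewer cells of a type and less RNA per cell cannot be told apart.

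In healthy LSECs the 8 receptors spanned a wide range when compared per kilobase of exon (CPM per kb). Clec4g was far ahead of the others at 2173 ± 339 CPM per kb (SD, n = 4), rank 24 of 26618 genes, and made up 82.9 to 86.2% of the summed level of the 8 genes in each healthy mouse. Clec14a came next at 201 ± 10.8 CPM per kb, followed by Clec1b at 73.0 ± 14.7. Clec2d (36.1 ± 25.1), Cd93 (34.8 ± 5.92) and Clec1a (33.0 ± 3.30 CPM per kb) overlapped between mice and could not be put in order. Cd209b was at 16.6 ± 2.21 CPM per kb and Clec9a at 3.79 ± 2.96 CPM per kb, each below the gene before it in 4 of 4 mice, although Clec2d in healthy mouse 4, at 10.7 CPM per kb, was below Cd209b in that mouse (17.0 CPM per kb).

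At day 1 this order was different. Clec4g remained first at 1090 ± 400 CPM per kb (SD, n = 2), but its share of the summed level was 55.0% and 67.2%. Cd93 came next at 256 ± 23.6 CPM per kb, followed by Clec1b at 231 ± 0.638, both above Clec14a (89.6 ± 23.5 CPM per kb) in 2 of 2 mice. At day 3 Clec14a (83.5 ± 19.4), Clec1b (67.9 ± 34.5) and Cd93 (57.7 ± 4.45 CPM per kb, n = 4) overlapped between neighbours, and Clec4g made up 78.8 to 83.8% of the sum. At day 7 the share of Clec4g was 76.0 to 80.6%, with Clec14a next at 121 ± 39.1 CPM per kb and then Clec1b at 59.6 ± 24.0, although their ranges overlapped. Cd209b and Clec9a, at 5.90 ± 2.63 and 8.41 ± 0.467 CPM per kb at day 7, overlapped at the bottom of the list.

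**Figure D1:**
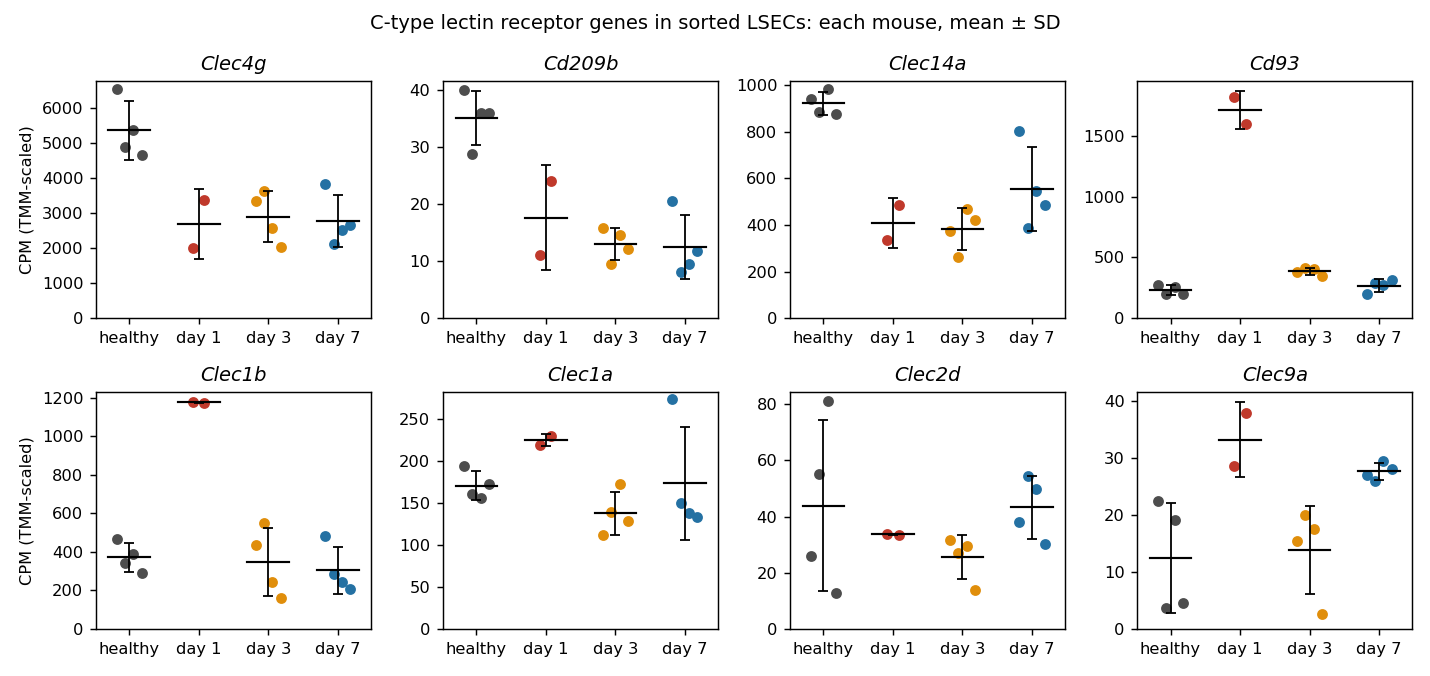
Level of each receptor gene in every mouse (points), in TMM-scaled CPM, for healthy mice and 1, 3 and 7 days after CCl4. Horizontal lines are group means and bars 1 SD (n = 4, 2, 4 and 4). Clec4g, Cd209b and Clec14a lie lower in all injured mice than in all healthy mice, whereas Cd93 and Clec1b have their highest values in the 2 mice of day 1.

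The comparison with healthy LSECs asked which receptors changed at each day. At day 1, Cd93 and Clec1b were called higher and none of the 8 was called lower, while 4.06% of all genes tested were called. At day 3, Cd93 was called higher and Clec14a and Cd209b lower, 3 of 8 genes against 7.19% of all genes. At day 7 only Cd209b was called, 1 of 8 against 3.18% of all genes. The ranges of the groups in CPM did not overlap for 7 of the 8 genes at day 1, 4 at day 3 and 4 at day 7, and for 37.9%, 14.4% and 20.8% of all genes tested. The median log2 fold change of the 8 genes was 0.01 at day 1, -0.54 at day 3 and -0.16 at day 7, beside -0.03, 0.18 and 0.02 over all genes tested.

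**Figure D2:**
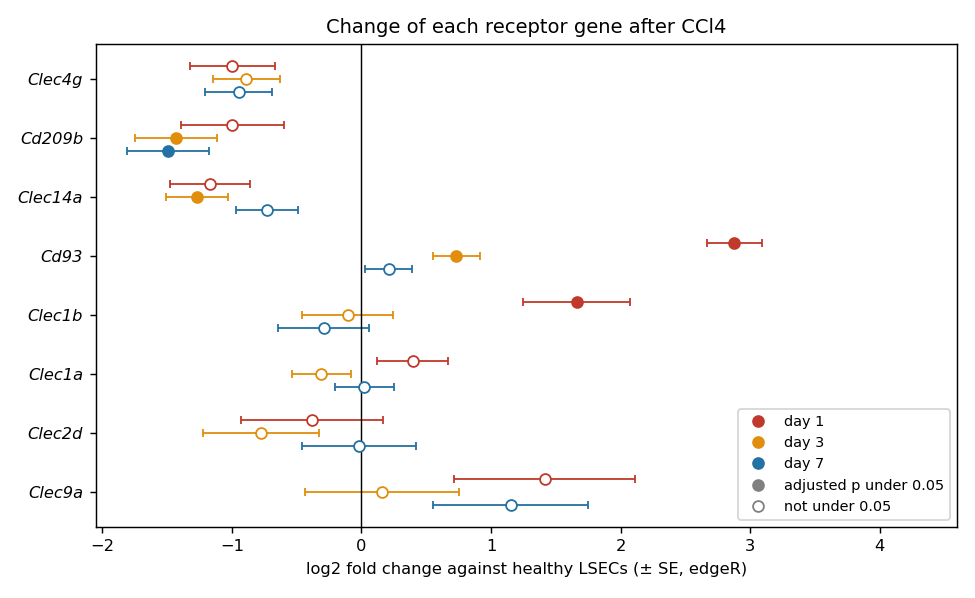
Log2 fold change of each receptor gene against healthy LSECs at day 1 (red), day 3 (orange) and day 7 (blue), with bars of 1 SE from edgeR. Filled points have an adjusted p under 0.05. Clec4g, Cd209b and Clec14a lie left of 0 at every day, and Cd93 is at 2.88 at day 1 and at 0.21 at day 7.

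Clec4g, the most abundant of these receptors, was lower in every injured mouse than in any healthy mouse. Its level was 6517, 4875, 5370 and 4639 CPM in the healthy mice and 1987 and 3381 CPM at day 1. It was 3337, 3637, 2568 and 2026 CPM at day 3 and 3833, 2102, 2504 and 2649 CPM at day 7. The group means after injury, 2684 to 2892 CPM, lay close to each other and well under the healthy mean of 5350 CPM. The log2 fold change was -0.995 (SE 0.33) at day 1, -0.89 (SE 0.26) at day 3 and -0.95 (SE 0.26) at day 7, with edgeR adjusted p of 0.116, 0.0547 and 0.0622, so none of these differences was called. DESeq2 called all 3, with adjusted p of 0.0178, 0.00785 and 0.00926, but called 12.3%, 16.1% and 12.2% of the genes it tested at these days. The log2 fold changes by DESeq2 were -1.01, -0.89 and -0.90. Limma-voom, run with a quality weight for each library, gave -1.01, -0.63 and -1.03. It also called all 3, and called 16.2%, 27.3% and 26.5% of all genes. With only the groups compared in the fit, edgeR called Clec4g at day 3 (-0.98, adjusted p = 0.0388) and day 7 (-0.94, adjusted p = 0.0310). These fits called 5.14% and 14.6% of all genes. With no filter it was called at day 3 (-1.06, adjusted p = 0.0357), beside 3.47% of all genes, so the call depends on the test and the fit.

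Cd209b, on chromosome 8 with 197003 bases between it and Clec4g, fell at day 3 and day 7. Its level was 39.9, 28.7, 35.9 and 35.9 CPM in the healthy mice and 11.1 and 24.1 CPM at day 1. It was 15.8, 9.49, 14.6 and 12.1 CPM at day 3 and 20.5, 8.06, 9.57 and 11.8 CPM at day 7, again with no injured mouse inside the healthy range. The log2 fold change was -0.996 (SE 0.40, edgeR adjusted p = 0.197) at day 1, -1.43 (SE 0.32, adjusted p = 0.0165) at day 3 and -1.49 (SE 0.32, adjusted p = 0.0247) at day 7, a 2.70-fold and a 2.81-fold lower level at the later days. The call at day 3 held when any 1 of the 8 libraries was left out. The call at day 7 was lost without any 1 of the healthy mice 1, 2 or 3 or the day 7 mice 2, 3 or 4, with adjusted p of 0.0512 to 0.0923, although the log2 fold change then still lay between -1.33 and -1.58.

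Within each library, reads of Clec4g outnumbered those of Cd209b 129 to 170 times in healthy mice, 141 and 179 times at day 1, 167 to 383 times at day 3 and 187 to 262 times at day 7. Across the 14 libraries the log2 CPM of Clec4g and Cd209b had a Pearson correlation of 0.87, and 0.66 after the group means were removed. These 14 points share the injury groups and the LSEC content of each library, so the value is a description.

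Clec14a, an endothelial adhesion receptor that binds the matrix protein multimerin 2, fell at day 3. Healthy mice had 941, 884, 980 and 876 CPM, a narrow range, against 334 and 486 CPM at day 1. At day 3 the level was 374, 262, 470 and 420 CPM and at day 7 it was 804, 386, 543 and 484 CPM, so that 1 mouse of day 7 came near the healthy mice and none reached them. The log2 fold change was -1.17 (SE 0.31, edgeR adjusted p = 0.0512) at day 1, -1.27 (SE 0.24, adjusted p = 0.00819) at day 3, or 2.41-fold lower, and -0.73 (SE 0.24, adjusted p = 0.107) at day 7. The call at day 3 held without any 1 of the 8 libraries. Without day 7 mouse 1, the day 7 value was -0.98 and was called (adjusted p = 0.0348). Between day 3 and day 7 the change was 0.54 (SE 0.24, adjusted p = 0.247) and the mice overlapped.

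Cd93, the group XIV receptor known for endothelial adhesion, migration and vessel integrity, rose the most of the 8 genes. It was at 275, 198, 256 and 199 CPM in healthy mice and at 1820 and 1597 CPM at day 1, a 7.36-fold higher mean level by the fit. At day 3 it was at 382, 413, 402 and 345 CPM, still above every healthy mouse, and at day 7 at 196, 290, 272 and 316 CPM, overlapping the healthy mice, with 1 mouse just below their range and 2 above it. The log2 fold change was 2.88 (SE 0.21, edgeR adjusted p = 2.0e-05) at day 1, 0.73 (SE 0.18, adjusted p = 0.0278) at day 3 and 0.21 (SE 0.18, adjusted p = 0.538) at day 7. After day 1 the level fell, by 2.15 (SE 0.21, adjusted p = 0.000724) until day 3 and by 2.67 (SE 0.21, adjusted p = 0.000104) until day 7 on the log2 scale. Cd93 and Clec1b were the 2 of 8 genes called in each of these comparisons, against 2.54% and 8.04% of all genes. The call at day 1 held without any 1 of the 6 libraries. That at day 3 was lost without any 1 of healthy mice 2, 3 or 4 or day 3 mice 1 or 3, with log2 fold changes of 0.56 to 0.78 and adjusted p of 0.0548 to 0.127.

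Clec1b, the podoplanin receptor, rose at day 1 and overlapped the healthy mice at day 3 and day 7. Healthy mice had 467, 342, 391 and 291 CPM, and both mice of day 1 were about equal, at 1180 and 1175 CPM. The level was 434, 548, 245 and 160 CPM at day 3 and 482, 284, 246 and 206 CPM at day 7, overlapping the healthy mice. The log2 fold change was 1.66 (SE 0.41, edgeR adjusted p = 0.0395) at day 1, or 3.16-fold, -0.10 (SE 0.35, adjusted p = 0.897) at day 3 and -0.29 (SE 0.35, adjusted p = 0.682) at day 7. From day 1 it fell by 1.76 (SE 0.41, adjusted p = 0.0391) to day 3 and by 1.95 (SE 0.41, adjusted p = 0.0134) to day 7 on the log2 scale. The rise at day 1 is a near-threshold call: leaving out any 1 of the 6 libraries, controls included, gave log2 fold changes of 1.54 to 1.79 with adjusted p of 0.0602 to 0.278. The fall to day 3 was likewise not called without either mouse of day 1 or without day 3 mouse 3 (adjusted p of 0.0568 to 0.215), and the fall to day 7 not without either mouse of day 1 (0.127 and 0.0865).

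Clec1a, the neighbour of Clec9a and Clec1b on chromosome 6, showed no called change. It was at 194, 161, 156 and 173 CPM in healthy mice, 220 and 230 CPM at day 1, 112, 139, 173 and 129 CPM at day 3 and 274, 150, 138 and 133 CPM at day 7. Only the mice of day 1 lay outside the healthy range as a group, with a log2 fold change of 0.40 (SE 0.28, edgeR adjusted p = 0.516). The values at day 3 and day 7 were -0.31 (SE 0.23, adjusted p = 0.476) and 0.02 (SE 0.23, adjusted p = 0.972). In counts, Clec1b exceeded Clec1a 1.68 to 2.51 times in healthy mice, 5.37 and 5.11 times at day 1, 1.25 to 3.94 times at day 3 and 1.55 to 1.89 times at day 7, so these neighbours did not keep a fixed ratio.

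Clec2d varied so much among healthy mice that their range covered every injured mouse. Its level was 26.0, 55.3, 81.0 and 12.9 CPM in healthy mice, 33.8 and 33.5 CPM at day 1, 31.8, 27.0, 29.5 and 14 CPM at day 3 and 38.1, 54.6, 49.9 and 30.3 CPM at day 7. The log2 fold changes were -0.38 (SE 0.55), -0.78 (SE 0.45) and -0.02 (SE 0.44), with edgeR adjusted p of 0.812, 0.339 and 0.990. In the 4 healthy mice the summed level of 8 lymphocyte and natural killer cell markers was 135, 260, 235 and 67.6 CPM, lowest in the mouse in which Clec2d was lowest. Their part in the Clec2d level was not tested.

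Clec9a was the least abundant member. Healthy mice had 22.5, 3.68, 19.1 and 4.57 CPM, a wide spread, and the mice of day 1 had 28.6 and 37.9 CPM. The level was 15.5, 20.0, 17.5 and 2.65 CPM at day 3 and 27.1, 26.0, 29.6 and 28.1 CPM at day 7. All mice of day 1 and day 7 were above all healthy mice, but the log2 fold changes of 1.41 (SE 0.70), 0.16 (SE 0.59) and 1.15 (SE 0.60) had edgeR adjusted p of 0.318, 0.909 and 0.287. Clec9a counts were 1.08 to 13.6% of those of Clec1b, whose exons share 184 bases with it, and the part of these shared bases in the Clec9a counts was not tested. This share did not follow the Clec1b level in 1 direction. Healthy mice 2 and 4, with Clec1b at 342 and 291 CPM, had the lowest shares, 1.08% and 1.57%. Both day 1 mice, in which Clec1b was highest, had 2.42% and 3.23%. Day 7 mouse 4, with 206 CPM of Clec1b, had 13.6%. In log2 CPM, Clec9a and Clec1b were correlated with a Pearson r of 0.49 over the 14 libraries, and of 0.62 once group means were taken out. The summed level of 8 dendritic cell markers was 170 to 240 CPM in healthy mice and 183 to 202 CPM at day 1. It was 112 to 209 CPM at day 3 and 148 to 205 CPM at day 7. Xcr1, which defines the dendritic cells known for Clec9a, was at 1.42 to 12.5 CPM over all mice. The Xcr1 mean was 7.32 CPM in healthy mice and 3.99, 4.14 and 7.06 CPM at the 3 days. Zbtb46 made up most of the healthy sum, at a mean of 132 CPM, and was at 68.1, 62.4 and 77.5 CPM at the 3 days. As the mean log2 CPM of the 8 markers, which weights them equally, the level was 1.93 to 3.83 in healthy mice, 4.06 and 3.63 in the mice of day 1, and 2.01 to 4.29 at day 3, with 3.45 to 4.00 for day 7. It was lowest in healthy mouse 4 and day 3 mouse 4, where Clec9a was at 4.57 and 2.65 CPM, whereas healthy mouse 2, with 3.68 CPM of Clec9a, had the highest marker level of the healthy mice. Of the 8 markers, 0 were called at day 1, Batf3 higher and Zbtb46 lower at day 3, and Itgax higher at day 7. Their part in the Clec9a level was not tested.

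From day 3 to day 7 none of the 8 genes was called by edgeR, which called 1.77% of all genes. Of the 8, 2 had an unadjusted p under 0.05 (Clec14a and Cd93), DESeq2 called 0 (6.8% of all genes it tested) and limma-voom 3 (22.5%). Day 7 mice were all above day 3 mice for Clec9a and all below them for Cd93, 2 of 8 genes against 7.91% of all genes.

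Read counts of a lectin were next set against endothelial genes of the same library, because the pan-endothelial genes were themselves lower at day 3 and day 7. Of these 9 genes, 1 was called higher and 0 lower at day 1, 2 were called lower at day 3 and 3 at day 7. Each member's log2 CPM minus the mean log2 CPM of the 9 genes was compared between the groups by a two-sided exact permutation test. This was done for 8 genes at each day, and the exact p are given without adjustment. At day 1, 2 mice against 4 cannot give a p under 0.0667. Cd93 (3.00), Clec1b (1.79), Clec14a (-1.09), Cd209b (-0.99) and Clec4g (-0.93) each had this smallest p, and these differences were close to the unscaled ones.

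At day 3 and day 7 the differences of the glycan receptors were smaller on this scale. Clec4g differed from healthy LSECs by -0.29 at day 3 (exact p = 0.514) and by -0.34 at day 7 (exact p = 0.257), and the mice overlapped at both days. Cd209b differed by -0.82 (exact p = 0.0571) and -0.94 (exact p = 0.0857). Clec14a was lower at day 3, by -0.68 with no overlap (exact p = 0.0286, the smallest that 4 mice against 4 can give), and differed by -0.15 at day 7 (exact p = 0.629). Cd93, on the other hand, was higher in every injured mouse at both days, by 1.37 and 0.84 (exact p = 0.0286 each), although its unscaled level at day 7 overlapped the healthy mice. That unscaled difference was 0.21, while the mean of the 9 reference genes was 8.34 log2 CPM at day 7 against 8.98 in healthy LSECs. Clec9a was higher at day 7 by 2.22 (exact p = 0.0286). With Benjamini-Hochberg adjustment over the 8 genes of a day, each exact p of 0.0286 became 0.114, so none was under 0.05. The signs of Clec1b, Clec1a and Clec2d at day 3, and of Clec1b and Clec2d at day 7, turned positive relative to the endothelial genes (0.39, 0.30, 0.10, 0.29 and 0.90), with overlapping mice and exact p of 0.171 to 0.914. The lower levels of Clec4g, Cd209b and Clec14a per library at day 3 and day 7 thus stood beside lower pan-endothelial genes in the same libraries.

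**Figure D3:**
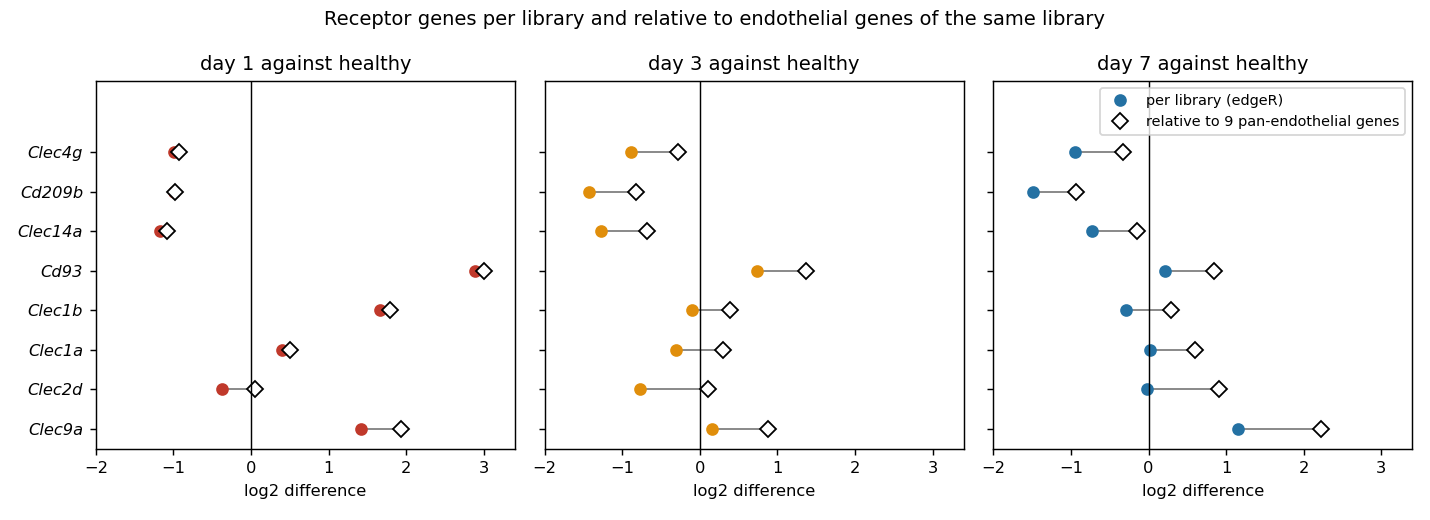
Log2 difference from healthy LSECs for each receptor gene, per library (filled circles, edgeR) and relative to the mean of 9 pan-endothelial genes of the same library (open diamonds), at day 1, day 3 and day 7. At day 1 the symbols nearly coincide for the genes from Clec4g to Clec1a, whereas at day 3 and day 7 every diamond lies to the right of its circle, with Clec4g at -0.29 and -0.34.

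Among the 4 group XIV lectins, Cd93 and Thbd were called higher at day 1 and Clec14a and Cd248 were not called at that day. Thbd, which turns thrombin into an activator of protein C, was at 98.2, 151, 172 and 122 CPM in healthy mice and at 1488 and 1637 CPM at day 1, a log2 fold change of 3.53 (SE 0.41, edgeR adjusted p = 0.000382). It was at 79.2 to 265 CPM at day 3 and 54.5 to 110 CPM at day 7, with no called difference from healthy LSECs (adjusted p of 0.823 and 0.293). Cd248, a receptor of perivascular and stellate cells rather than of endothelium, was at 0.258 to 1.01 CPM in healthy mice, 3.64 to 19.0 CPM at day 3 and 2.31 to 25.9 CPM at day 7, and rose by 3.69 (SE 0.77, adjusted p = 0.0132) and 3.97 (SE 0.78, adjusted p = 0.0184). Of 8 stellate cell markers, 7 were called higher at each of these days, with summed levels of 131 to 245 CPM in healthy mice, 596 to 1852 CPM at day 3 and 329 to 5258 CPM at day 7. Their part in the Cd248 level was not tested.

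Within a library, the ratio of Cd93 to Clec14a reads was 0.224 to 0.292 in healthy mice and 5.45 and 3.29 in the mice of day 1. It lay between 0.821 and 1.57 at day 3, and the range at day 7 was 0.244 to 0.752. This pair was chosen after its values were seen, so the ratio is a description with no test. Both counts of a ratio come from the same library, so it does not depend on how many reads that library has, but Cd93 is also expressed by monocytes, whose markers are given below. Neither of the matrix ligands of these receptors was called at day 1. Mmrn2 (multimerin 2), bound by Clec14a and Cd93, was at 353 to 465 CPM in healthy mice and 152 and 206 CPM at day 1, with a log2 fold change of -1.14 (SE 0.35, edgeR adjusted p = 0.0948), and Igfbp7, a matrix ligand of Cd93, differed by -0.69 (SE 0.26, adjusted p = 0.163).

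**Figure D4:**
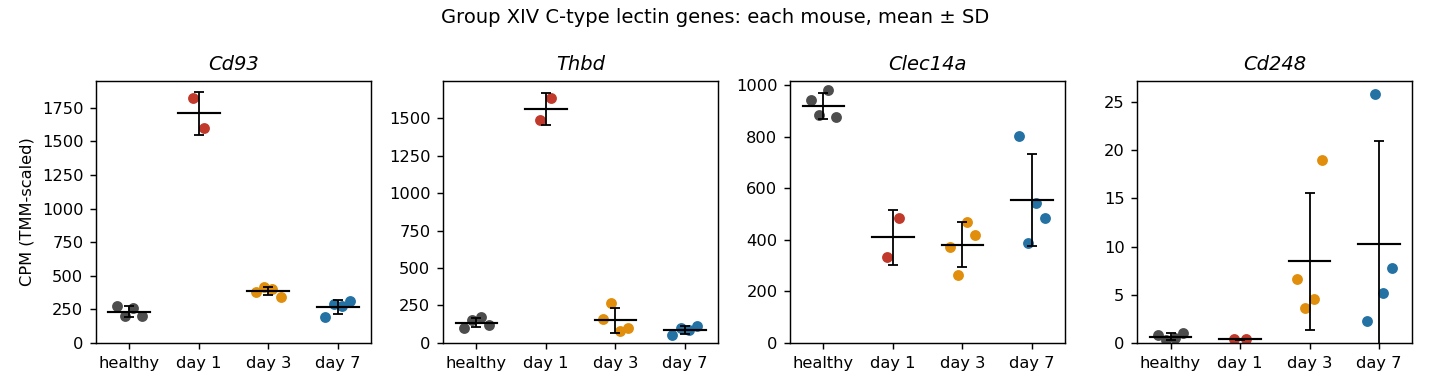
Level of the 4 group XIV lectin genes in every mouse (points) with group means and bars of 1 SD, in TMM-scaled CPM. Cd93 and Thbd have their highest values in the 2 mice of day 1, Clec14a is lower in all injured mice than in all healthy mice, and Cd248, at most 1.01 CPM in healthy mice and at day 1, varies widely at day 3 and day 7.

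Few of the other ligands and signalling genes were called. Of 6 ligands and binding partners, Pdpn (podoplanin, the ligand of Clec1b) was called, at day 7 only, with a log2 fold change of 3.61 (SE 0.83, edgeR adjusted p = 0.0348) from a mean of 0.148 CPM in healthy mice to 1.83 CPM. Of 12 genes of Syk and hemITAM signalling, 0 were called at day 1 and day 7, and Plcg2 (1.74, SE 0.45) and Btk (1.33, SE 0.33) rose at day 3. Syk itself differed by 1.61 (SE 0.45), 1.26 (SE 0.38) and 1.51 (SE 0.39) at the 3 days, with adjusted p of 0.0621, 0.0661 and 0.0503. Syk is also expressed by leukocytes, whose markers are given below, and their part in these values was not tested.

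Of 51 other C-type lectin genes tested, out of 54 listed, 7 were called higher and 3 lower at day 1, 12 higher and 2 lower at day 3, and 9 higher and 0 lower at day 7. Mrc1, the mannose receptor with which LSECs clear glycoproteins, fell by 1.499 (SE 0.27) at day 1 and by 1.38 (SE 0.21) at day 3 on the log2 scale, and Pla2r1, another member of the mannose receptor family, fell by 2.27 (SE 0.30) and 1.53 (SE 0.22). Olr1, the endothelial receptor for oxidized low-density lipoprotein, rose from a mean of 0.447 CPM to 12.7 CPM at day 1 (log2 fold change 4.82, SE 0.49) and was higher at all 3 days. The selectins Sele and Selp, which tether leukocytes to activated endothelium, rose at day 1 by 1.79 (SE 0.39) and 3.25 (SE 0.60). None of the 7 relatives of Cd209b in the DC-SIGN group and none of the 5 genes of the asialoglycoprotein receptor group was called at any of these days, and neither was any of the 7 tested relatives of Clec2d. The mean of Cd209f was still 15.5 CPM in healthy mice and 8.55, 4.77 and 6.68 CPM at the 3 days. That of Cd209g was 17.3 CPM, then 7.81, 3.85 and 5.55 CPM, and mice overlapped for both genes. Cd209a went the other way, from 7.30 to 20.3, 10.4 and 11.3 CPM. The median log2 fold change of the 7 DC-SIGN relatives was 0.47, -0.02 and -0.76. Clec4d, Clec4e and Clec5a, which myeloid cells express, rose at day 1 by 5.01 (SE 1.00), 4.25 (SE 0.75) and 3.09 (SE 0.72).

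Markers of other cells moved with some of the receptor genes. The summed level of 10 monocyte and neutrophil markers was 522 to 1390 CPM in healthy mice, 4398 and 8559 CPM at day 1, 1356 to 12513 CPM at day 3 and 4165 to 9589 CPM at day 7, and 5, 3 and 1 of the 10 were called higher at these days. Cd93 is also expressed by monocytes. The sum at day 7 was mostly Lyz2, which encodes lysozyme, at a mean of 7279 CPM against 1605 CPM at day 1, whereas S100a8, S100a9 and Cxcr2 fell from day 1 to day 7, from 1438 to 36.1, from 2644 to 71.4 and from 106 to 4.13 CPM. The mean log2 CPM of the 10 markers was 2.43 to 4.55 in healthy mice, 7.998 and 7.35 at day 1 and 4.85 to 5.22 at day 7, so that, like Cd93, the markers had their highest group mean at day 1 and were lower at day 7. At day 3 it was 7.85, 7.16, 3.91 and 2.32 in mice with 382, 413, 402 and 345 CPM of Cd93. The part of these cells in the Cd93 level was not tested.

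The paper lists Clec1b and Clec4g among genes enriched in LSECs of healthy human livers. From these same mouse LSECs it reports Clec4g as lower after injury and Clec1b as higher at early times. Its signature of healthy LSECs holds Clec4g and leaves out Clec1b. Clec14a is listed there among genes enriched in damaged human LSECs or endothelial cells, whereas it was called lower here at day 3. As platelets also carry Clec1b, 8 platelet and megakaryocyte markers were set beside it. Their summed level was 27.2 to 44.9 CPM in healthy mice, 285 and 103 CPM at day 1, 49.5 to 161 CPM at day 3 and 24.5 to 37.3 CPM at day 7, and 3, 1 and 1 of the 8 were called higher. Most of the sum was Pf4, at 255 and 84.0 CPM at day 1. Pf4, Ppbp and Itga2b were the markers called at day 1, in the mice where Clec1b was at 1180 and 1175 CPM. Gp1ba went the other way without being called, at 3.28 to 3.73 CPM in healthy mice and 1.36 and 1.67 CPM at day 1. Gp6, Treml1 and Tubb1 were scarce, with day 1 means of 0.173, 0.118 and 0.0983 CPM. The summed level of 9 Kupffer cell markers was 267 to 1574 CPM in healthy mice and 2007 and 861 CPM at day 1. It was 655 to 1448 CPM at day 3 and 656 to 1654 CPM at day 7. Of these 9 markers, 0 were called at any of the 3 days. The parts of platelet and Kupffer cell RNA in the Clec1b level were not tested. Hepatocyte markers were highest in healthy mouse 4 (7889 CPM) and day 7 mouse 2 (6171 CPM). Without these libraries the log2 fold change was 1.54 for Clec1b at day 1 (edgeR adjusted p = 0.106), 0.56 for Cd93 at day 3 (adjusted p = 0.151) and -1.28 for Cd209b at day 7 (adjusted p = 0.129), and these 3 calls were lost. The calls for Cd93 at day 1 and for Clec14a and Cd209b at day 3 held. Without these libraries 2.47%, 4.11% and 1.1% of all genes were called at day 1, day 3 and day 7.

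**Figure D5:**
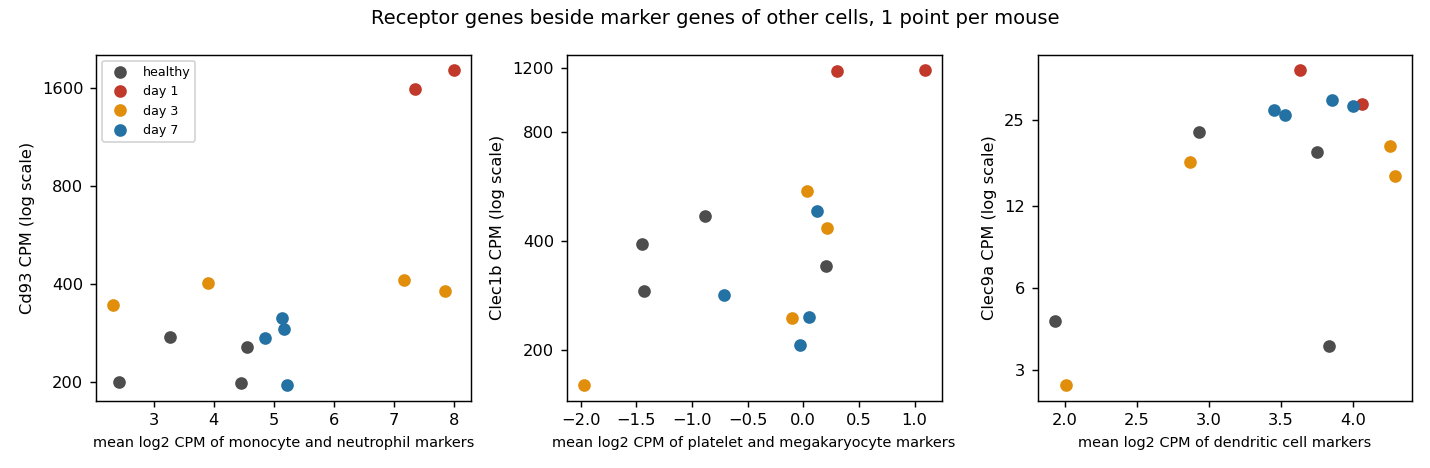
Level of Cd93, Clec1b and Clec9a in each mouse (points, colour by group, logarithmic axis) against the mean log2 CPM of markers of monocytes and neutrophils, of platelets and megakaryocytes, and of dendritic cells. The 2 mice of day 1 stand above all others for Cd93 and Clec1b and lie toward the right of both panels. Of the 3 mice with the lowest Clec9a, 2 have the lowest dendritic cell marker levels and 1, healthy mouse 2, does not.

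The genes whose log2 CPM was most like that of each member over the 14 libraries, among 16850 protein-coding genes tested, are given as a description. For Clec4g it was Fcgrt, the neonatal Fc receptor (Pearson r = 0.97, Spearman rho = 0.96, and r = 0.92 after the group means were removed). For Cd209b it was Fam3c (0.96, 0.95 and 0.90 in the same order), and for Clec14a Rmi1 (0.97, 0.90 and 0.95), with Hoxb5 and the caveolin gene Cav2 next. Clec1b was most like Flot1 (0.96, 0.91 and 0.89), followed by Trim13 and by Gja4, which encodes a connexin of arterial endothelium. Cd93 was most like the AP-1 subunit gene Fosl1 (0.97, 0.97 and 0.61), a likeness that rests largely on the groups, since r within groups was lower. Clec1a (Slc31a1, r = 0.88), Clec2d (Ccr8, 0.87) and Clec9a (Gm43951, 0.86) had less close matches. These correlations are the highest of many, and the libraries share groups and cell content, so they describe these 14 libraries only.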

How the data were processed

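RNA sequencing of sorted LSECs from 14 mice was analysed, with groups taken from the sample labels: healthy (4), day 1 (2), day 3 (4) and day 7 (4). The authors mapped reads with STAR to GRCm38.p6, ran StringTie and deposited whole-number counts per Ensembl gene without normalization. The annotation release and the use of strand in counting are not given in the sources used here, and the study's methods describe the reads both as paired-end and as single-end. Gene symbols, positions and exon lengths came from GENCODE vM21, which held 54495 of the 54524 genes.

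Counts were filtered with filterByExpr (minimum count 10, minimum total 15, by group), scaled with TMM and tested with edgeR 4.0.16 (quasi-likelihood, R 4.3.3) in 1 model of the 4 group means. Calls required a Benjamini-Hochberg adjusted p under 0.05. Each SE was obtained as the size of the log2 fold change over the square root of its F statistic. Levels between genes use CPM per kilobase of all annotated exons, and log2 CPM a prior count of 2. All 8 members are named in every comparison, relatives and ligands where called or where a sentence turns on them, and the 3 protein-coding genes with the highest Pearson r per member. The members and gene lists were chosen with earlier results of these data known. Alternatives were RLE factors, library size only, no filter, the 2 groups alone, the replicate number as a block, DESeq2 1.42.0, limma-voom 3.58.1 with a quality weight for each library, each library left out, the pan-endothelial reference and the longest transcript. Counting floors cover counting error only. The scripts were tested on simulated data. Each library was a different animal.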

Additional observations from a re-analysis of the deposited data

Results flagged for a closer look

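In the 24 groups of 4 mice examined (8 genes in the healthy, day 3 and day 7 mice), 1 value stood apart from the other 3 of its group by Dixon's criterion (critical value 0.829). Clec1a in day 7 mouse 1 was at 274 CPM, against 150, 138 and 133 CPM in the other mice of that day. Chance alone is known to flag about 1 in 20 such groups. In the same mouse Clec4g, Cd209b, Clec14a and Clec1b also had the highest values of day 7, at 3833, 20.5, 804 and 482 CPM, while Cd93 had the lowest, at 196 CPM. Without this mouse the log2 fold change of Clec1a at day 7 was -0.29 in place of 0.02, with an edgeR adjusted p of 0.378.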

How the results depend on the processing

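With RLE factors in place of TMM, 3 of the 8 genes were called at day 1 (4.04% of all genes), and with library size alone 2 (3.59%). Both settings gave 3 calls at day 3 (7.12% and 6.04%) and 1 at day 7 (2.98% and 2.68%), as TMM did. At day 1, where TMM gave 2 calls (4.06% of all genes), 1 gene was called with no filter on low counts (1.86%). The count was also 1 with the replicate number as a block (2.23%). Without the 2 libraries highest in hepatocyte markers, an alternative chosen after seeing the data, it was 1 (2.47%). DESeq2 called 4 (12.3%) and limma-voom 6 (16.2%). At day 7, where 1 was called (3.18% of all genes), the count was 0 with the block (1.63%) and 0 without the hepatocyte-high libraries (1.1%). It was 2 with only the groups compared (14.6%), 2 by DESeq2 (12.2%) and 4 by limma-voom (26.5%), so these counts moved with the share of all genes. From day 1 to day 3, 2 genes were called (2.54% of all genes) and 1 with only these groups in the fit (0.762%). From day 3 to day 7 it was 0 (1.77%) and, by limma-voom, 3 (22.5%). With each library left out in turn, the calls against healthy LSECs numbered 1 each time at day 1, between 2 and 4 at day 3 and, for day 7, from 0 to 3, with 1 to 2 from day 1 to day 3 and 1 to 2 from day 1 to day 7; with 1 mouse left at day 1, that mouse is assumed to vary like the other groups. The share of all genes called with 1 library left out was 3.56% to 12.5% at day 3 and 0.726% to 5.7% at day 7. At day 1 it was 2.69% to 3.05% with 1 healthy mouse left out. Cd93 at day 3 was also not called with no filter (0.56, edgeR adjusted p = 0.137) or with only the groups compared (0.65, adjusted p = 0.0575), nor Clec1b at day 1 with no filter (1.61, adjusted p = 0.0539). The cause was not tested.

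Some small differences changed sign. Clec2d at day 7 (-0.02) was 0.0197 with RLE factors, 0.0198 by DESeq2, 0.0559 with library size only, 0.21 with the replicate block, 0.90 relative to the pan-endothelial genes and -0.31 to 0.46 with 1 library left out. Clec2d at day 1 (-0.38) was 0.0458 relative to the pan-endothelial genes and -0.72 to 0.10 with 1 library left out, and at day 3 (-0.78) it was 0.10 relative to these genes. Clec9a at day 3 (0.16) was -0.00686 with no filter, -0.24 without the hepatocyte-high libraries and -0.24 to 0.61 with 1 library left out. Clec1a at day 7 (0.02) was -0.0854 with no filter, -0.00780 with the block, -0.15 by limma-voom and -0.29 to 0.16 with 1 library left out, and at day 3 (-0.31) it was 0.30 relative to the pan-endothelial genes. Clec1b at day 3 (-0.10) was 0.30 by limma-voom, 0.39 relative to the pan-endothelial genes and -0.39 to 0.0351 with 1 library left out, and at day 7 (-0.29) it was 0.29 relative to these genes. With the length of the longest transcript, Clec4g was at 3710 CPM per kb in healthy LSECs in place of 2173.

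The groups share replicate numbers, but these do not pair the mice: over 18 pairs with the same number, the correlation of the deviations from the group means was -0.232 to 0.0962, none over 0.1, and 0 of 14 libraries were most like one with their own number. With the replicate block, Clec1b at day 1 (1.27, edgeR adjusted p = 0.0793), Cd93 at day 3 (0.73, adjusted p = 0.0613) and Cd209b at day 7 (-1.53, adjusted p = 0.0528) were not called, and 594, 1385 and 435 genes in all were called at day 1, day 3 and day 7 in place of 1080, 1915 and 846. Depth limits none of the 8 genes, the lowest count being 250 reads, and the 2 mice of day 1 limit the precision at that day.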
